A study of Caenorhabditis elegans with 14 samples.

Results

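T-box genes encode transcription factors that share a DNA-binding domain, and 10 of them were followed here in whole *C. elegans*. These were *tbx-2*, *tbx-8*, *tbx-9*, *tbx-11*, *tbx-33*, *tbx-36*, *tbx-37*, *tbx-38*, *tbx-43* and *sea-1*, taken by gene name from the 11751 genes listed in both deposited tables. Those tables list genes with a mean count of at least 2, and 12 T-box genes passed that minimum in both. The other two, *tbx-39* and *tbx-40*, were close to it and are described separately. The members were thus chosen by family name and by being counted at all in both tables, and the family was taken up with its response to *anc-1* RNAi already known, so the tests below set each difference against the spread between replicates and are no independent evidence that T-box genes respond. Levels, co-variation and strain baselines are given as descriptions.

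T-box factors bind a short DNA element through the T-domain and act as activators or repressors, mostly in embryonic cells that are choosing a fate. In *C. elegans* they are best known from early embryogenesis. There they specify mesoderm of the pharynx, shape the epidermis and the body wall muscle, and take part in counting sex chromosomes. Several worm T-box genes arose by local duplication, and closely similar paralogs can replace each other.

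*anc-1* encodes a very large nesprin that anchors nuclei to the actin cytoskeleton as part of the linker of nucleoskeleton and cytoskeleton, and the study asked whether it affects gene expression and protein homeostasis. Wild-type worms (strain N2) and polyQ35-YFP worms (strain AM140), which carry a stretch of glutamines fused to a yellow fluorescent protein, were fed bacteria with the empty vector (EV) or with double-stranded RNA against *anc-1*. The transgene is driven by the *unc-54* promoter, which is active in body wall muscle. All 14 samples were homogenates of synchronized hermaphrodites on day 6 of adulthood, grown at 20 °C and washed daily to remove progeny, with 3 samples in each wild-type group and 4 in each polyQ35-YFP group. The labels do not speak of removing embryos still inside the mothers.

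RNA was counted with CEL-Seq2, which reads the 3′ ends of polyadenylated transcripts. Samples held 4934531 to 11563506 reads on listed genes, and replicates of each group differed by more than counting noise (chi-square per degree of freedom of 6.48 to 62.9). The RNAi target checked the labels. In wild-type worms *anc-1* fell to 16.2% of its EV mean, with a log2 fold change of -2.64 ± 0.19 (SE, limma adjusted p = 2.99e-07). In polyQ35-YFP worms it fell to 10.8%, a log2 fold change of -3.24 ± 0.25 (adjusted p = 4.80e-05). Over all genes polyQ35-YFP EV replicate 4 stood apart, at 30.1 to 62.9 against the other EV samples of its strain, which gave 14.4 to 21.02 among themselves. RNAi replicate 4 of that strain was at 17.6 to 23.6 against 6.48 to 10.6. For the T-box genes a pair of polyQ35-YFP EV samples lay at opposite ends of their group. Replicate 3 was the highest of its group in 8 of 10 members, and replicate 4 was the lowest in 8 of 10. Values without them are given where they matter.

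*anc-1* RNAi lowered 7 of 10 T-box genes in wild-type worms and 6 of 10 in polyQ35-YFP worms, and it raised none in either strain (limma on log2(normalized count + 1), adjusted p below 0.05). The 6 were among the 7, and the gene called in wild-type worms only was *sea-1*. Over all listed genes, 6.13% were called lower and 7.5% higher in wild-type worms, and 1.47% lower and 0.772% higher in polyQ35-YFP worms. EV and RNAi samples did not overlap for 8 members, the same genes in both strains, always with RNAi lower. Of all genes, 15.8% were without overlap in that direction in wild-type worms, with as many in the other, and in polyQ35-YFP worms 5.94% were lower and 3.39% higher. The replicate block, edgeR and DESeq2 each called 7 members lower in wild-type worms, against 7.44%, 5.59% and 5.85% of all genes. For polyQ35-YFP they called 7, 5 and 7 members, against 4.3%, 1.39% and 3.24%. The count for that strain was 3 without EV replicate 2 and 0 in a fit without a variance trend over expression. Calls over all 12173 genes of that strain shrank in these fits too. Genes called lower numbered 179 in the main fit, 60 without EV replicate 2 and 6 without the trend. The median log2 fold change of the members was -1.01 in wild-type worms and -1.24 in polyQ35-YFP worms, while the medians of all genes were 0.0035 and 0.034. In whole worms, fewer cells that express a gene and less RNA of it per cell cannot be told apart.

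**Figure D1:**
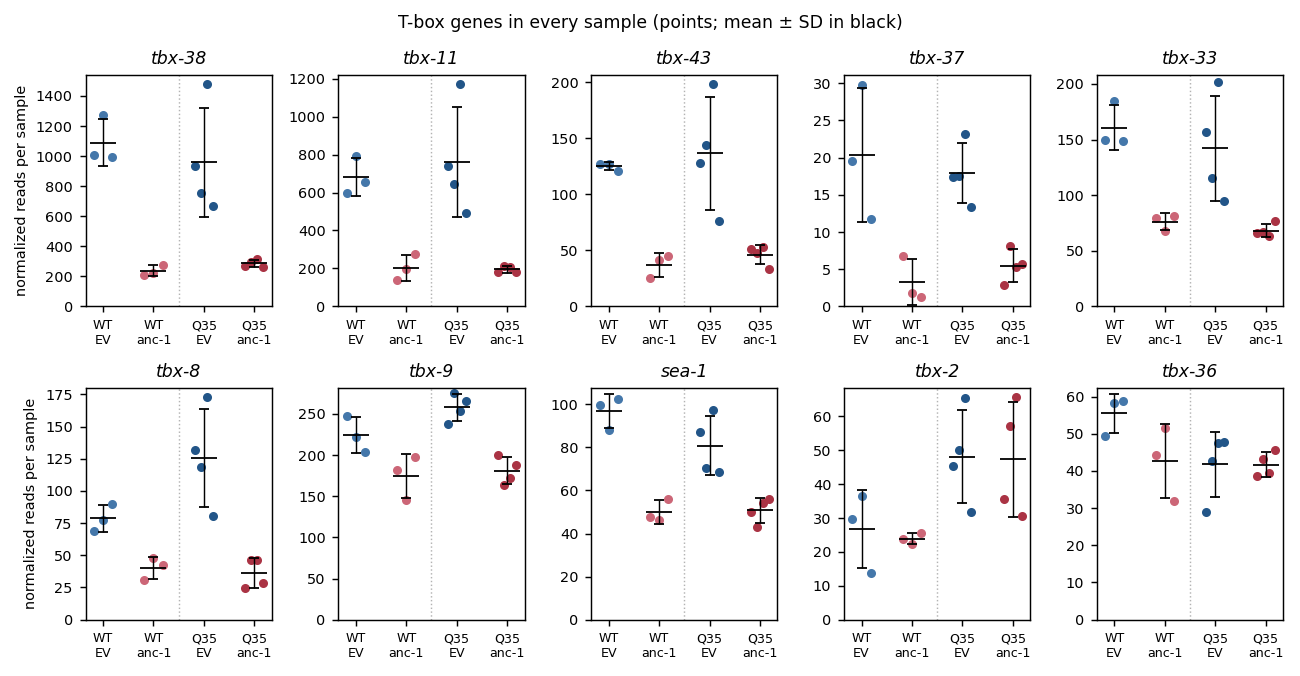
Normalized reads (vertical axes, linear and starting at 0) of each T-box gene in every sample of the 4 groups, as points with the group mean and its SD in black; Q35 stands for polyQ35-YFP and anc-1 for *anc-1* RNAi. The scale of both strains was set separately, so levels are compared within a strain only, where the EV and RNAi points of *tbx-2* and *tbx-36* overlap and those of the other 8 genes do not.

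*tbx-38* and *tbx-37* encode similar paralogs that act redundantly in the mesoderm made by descendants of the anterior blastomere ABa, where they allow a Notch signal to specify pharynx. *tbx-38* was counted at 1005, 1271 and 993 normalized reads in the wild-type EV samples and at 211, 221 and 278 after *anc-1* RNAi. All RNAi samples were far below all EV samples, and RNAi left 21.7% of the EV mean, a log2 fold change of -2.20 ± 0.14 (SE, adjusted p = 4.25e-08). In polyQ35-YFP worms the EV samples held 933, 752, 1479 and 666 normalized reads and the RNAi samples 268, 298, 313 and 264. The spread under EV was wide, the RNAi samples lay close together, and the log2 fold change was -1.67 ± 0.21 (adjusted p = 0.00178). The call for *tbx-38* held when any single sample was left out, in both strains. The gene lies on chromosome III at 11784076 to 11786052 of WBcel235, minus strand, in 3 exons, and shares 35 bases with *srd-74* on the opposite strand, a gene that neither table lists.

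*tbx-37*, at 11224800 to 11227125 on the same chromosome and strand, rested on few reads. Wild-type EV samples gave 17, 49 and 11 reads and RNAi samples 6, 2 and 1, which in normalized reads was 19.5, 29.7 and 11.8 against 6.82, 1.78 and 1.28. The groups did not overlap and the log2 fold change was -2.45 ± 0.53 (adjusted p = 0.00436), but without EV replicate 2 the adjusted p was 0.0524. In polyQ35-YFP worms *tbx-37* was counted at 17.4, 17.6, 23.2 and 13.4 normalized reads under EV and at 2.82, 8.16, 5.27 and 5.71 under RNAi, again without overlap. Its log2 fold change there was -1.59 ± 0.37 (adjusted p = 0.0420), a call kept in 1 of 8 fits that left out a sample, namely without EV replicate 4. Because *tbx-37* and *tbx-38* are alike in sequence, how reads were shared between them is uncertain.

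*tbx-11*, *tbx-43* and *tbx-33* have less well described roles and showed the same direction as *tbx-38*. *tbx-11* (chromosome III, 6045660 to 6046905, minus strand, 2 exons) held 595, 794 and 654 normalized reads in wild-type EV samples and 141, 194 and 277 after RNAi. RNAi left 29.97% of the EV mean, a log2 fold change of -1.78 ± 0.19 (adjusted p = 9.04e-06). In polyQ35-YFP worms the EV samples held 740, 645, 1170 and 494 and the RNAi samples 179, 214, 208 and 184, and the log2 fold change was -1.88 ± 0.22 (adjusted p = 0.00117). The groups did not overlap in either strain, and the call for *tbx-11* held without any single sample.

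*tbx-43* gave the tightest EV group of the family in wild-type worms, with 127, 127 and 121 normalized reads, against 25, 41.7 and 44.7 under RNAi (log2 fold change -1.77 ± 0.23, adjusted p = 4.70e-05). In polyQ35-YFP worms it held 128, 144, 198 and 76.3 under EV and 50.8, 47.8, 52.7 and 33.3 under RNAi. The lowest EV sample, replicate 4, was still above the highest RNAi sample. The log2 fold change was -1.49 ± 0.27 (adjusted p = 0.0147), and the adjusted p was 0.0546 without EV replicate 2.

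*tbx-33* was lowered to a smaller extent. Wild-type EV samples held 149, 184 and 149 normalized reads and RNAi samples 79.6, 67.5 and 81.7, a log2 fold change of -1.06 ± 0.17 (adjusted p = 0.000434). In polyQ35-YFP worms the values were 156, 115.4, 201 and 94.7 under EV and 65.8, 66.4, 63.2 and 77.1 under RNAi, with a log2 fold change of -0.99 ± 0.23 (adjusted p = 0.0402). That call was marginal. It was kept only without EV replicate 4 (adjusted p = 0.00316) among the 8 fits that left out a sample, and the other fits gave adjusted p-values from 0.0587 to 0.121.

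*tbx-8* and *tbx-9* are neighbours on chromosome III, 5716 bases apart with 0 coding genes between them and on opposite strands (*tbx-8* at 10347575 to 10349740 on the plus strand, *tbx-9* at 10339984 to 10341858 on the minus strand). They act redundantly in the embryo, in the arrangement of epidermal and muscle cells as the body takes shape. *tbx-8* held 68.8, 77.6 and 89.8 normalized reads in wild-type EV samples and 30.7, 47.9 and 42.1 after RNAi (log2 fold change -0.97 ± 0.23, adjusted p = 0.00832). In polyQ35-YFP worms it held 132, 118, 173 and 80.5 under EV and 24.4, 46.6, 46.1 and 28.6 under RNAi, a log2 fold change of -1.77 ± 0.28 (adjusted p = 0.00708). Both calls for *tbx-8* held without any single sample.

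*tbx-9* moved less than its neighbour and did not pass the threshold in either strain. Its wild-type samples held 248, 222 and 204 normalized reads under EV and 182, 146 and 198 under RNAi, without overlap although the closest samples were 204 and 198 (log2 fold change -0.37 ± 0.15, adjusted p = 0.131). Its polyQ35-YFP samples held 238, 275, 254 and 266 under EV and 200.2, 163, 172 and 188 under RNAi, with a log2 fold change of -0.51 ± 0.15 (adjusted p = 0.0913). In polyQ35-YFP worms *tbx-9* passed the threshold with the repeat number as a block (adjusted p = 0.0331) and in DESeq2 on the recovered reads without pairing (adjusted p = 0.0197), but not in edgeR (adjusted p = 0.0825).

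*sea-1* encodes a T-box protein that serves as an autosomal signal in the count of X chromosomes against autosomes, by activating the sex switch gene *xol-1* in early embryos. Wild-type EV samples held 99.8, 87.9 and 103 normalized reads and RNAi samples 47.7, 46.2 and 56.1, and the log2 fold change was -0.94 ± 0.20 (adjusted p = 0.00327). In polyQ35-YFP worms *sea-1* held 86.9, 70.2, 97.4 and 68.7 under EV and 49.8, 43.1, 53.97 and 56.2 under RNAi. The samples did not overlap there either, but the log2 fold change of -0.65 ± 0.21 missed the threshold (adjusted p = 0.128, and 0.0502 with the repeat number as a block). The gene is on chromosome II at 3671911 to 3673590, minus strand, one of the 2 members outside chromosome III.

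*tbx-2* and *tbx-36* were the members whose EV and RNAi samples overlapped in both strains. *tbx-2*, related to vertebrate Tbx2 and Tbx3, is needed for pharyngeal muscle from the ABa lineage and works as a repressor. It held 29.8, 36.4 and 13.9 normalized reads in wild-type EV samples and 23.9, 22.2 and 25.5 under RNAi, and 45.2, 50.2, 65.3 and 31.9 against 35.7, 57.1, 65.8 and 30.5 in polyQ35-YFP worms. Its log2 fold changes were -0.06 ± 0.34 (95% interval -0.77 to 0.66) and -0.05 ± 0.30 (adjusted p = 0.943 and 0.957), so a change of up to about that interval could not be detected at 13 to 80 reads a sample. *tbx-36*, on chromosome IV at 11950595 to 11952204, held 49.3, 58.2 and 58.8 normalized reads against 44.3, 51.5 and 31.9 in wild-type worms (log2 fold change -0.40 ± 0.24, adjusted p = 0.304). In polyQ35-YFP worms its samples held 28.98, 42.6, 47.6 and 47.8 under EV and 38.5, 43.1, 39.5 and 45.7 under RNAi, with a log2 fold change of 0.02 ± 0.24 (adjusted p = 0.976).

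**Figure D2:**
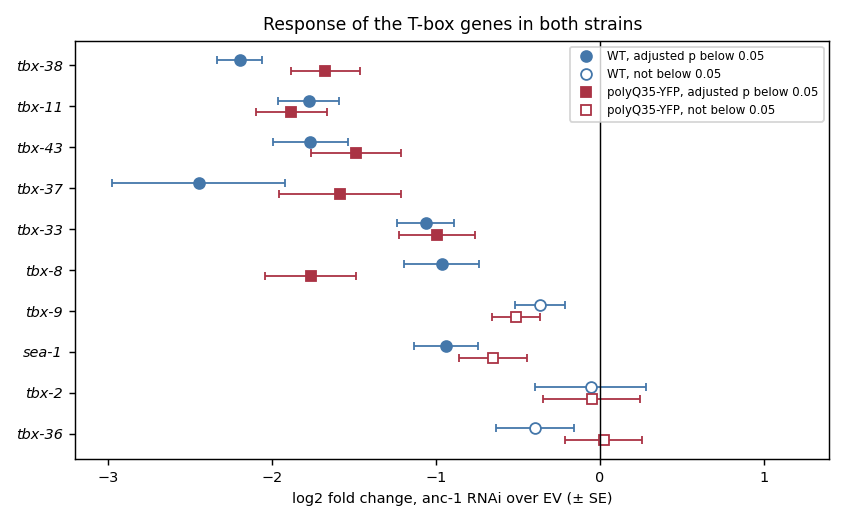
Log2 fold change of each T-box gene, *anc-1* RNAi over EV (horizontal axis), with its SE, in wild-type (circles) and polyQ35-YFP worms (squares); filled symbols passed an adjusted p of 0.05. The 6 genes with filled symbols in both strains lie between -0.97 and -2.45, and *tbx-2* and *tbx-36* lie nearest to 0 in polyQ35-YFP worms.

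The T-box genes just outside the set were close to the limit of detection. *tbx-39* gave 6, 5 and 10 reads in wild-type EV samples and 1, 2 and 3 under RNAi, and 3, 3, 8 and 1 against 2, 1, 0 and 1 in polyQ35-YFP worms. *tbx-40*, its close paralog 1749 bases away on chromosome IV, gave 2, 15 and 1 reads against 0, 0 and 1, and 4, 8, 5 and 5 against 2, 0, 1 and 3. *tbx-7*, listed for wild-type worms only, gave 9, 5 and 4 reads against 1, 3 and 0. None of these was called (adjusted p from 0.128 to 0.462 over both strains), and a count of 0 still allows up to 3 reads. Reads of *tbx-39* and *tbx-40* may have been shared between them, and *tbx-7* overlaps *cyk-3* on the opposite strand. The member with the fewest reads was *tbx-37*, so it stood just inside this range. *mab-9*, *mls-1* and 6 further *tbx* genes, 8 gene names in all, were listed in neither table.

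No T-box gene was shown to differ between the strains in its response to *anc-1* RNAi. The interaction of strain and treatment called 0 of 10 members in limma, and also 0 in edgeR and DESeq2, and 0 members reached an unadjusted p below 0.05. Over the 11751 shared genes limma called 1 gene (*sodh-1*) higher, or 0.00851%, and none lower (0.0425% lower with the replicate block), and 407 genes had an unadjusted p below 0.05. The lowest unadjusted p of a member was 0.0547, for *tbx-8*, which fell more in polyQ35-YFP worms by 0.80 on the log2 scale (95% interval of the difference -1.62 to 0.02). For *tbx-38* the difference was 0.52 in the other direction (95% interval -0.08 to 1.13) and for *tbx-11* it was -0.11 (-0.81 to 0.60). These intervals are wide, so the strains were not shown to respond alike.

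The T-box genes also varied among replicates of a group. Deviations of log2 values from the 4 group means were compared for the 45 pairs of members across the 14 samples. The median correlation was 0.23, from -0.62 to 0.93, against 0 for all pairs of the 9536 genes with a mean value of at least 10 in both tables, and 16 pairs, or 35.6%, exceeded 0.5 against 15.2% of all pairs. *tbx-11* and *tbx-38* varied most alike (r = 0.93), followed by *tbx-33* and *tbx-38* (0.85) and *tbx-11* and *tbx-43* (0.82). The neighbours *tbx-8* and *tbx-9* varied in opposite directions (-0.62), and *tbx-9* and *tbx-36* had negative median correlations with the other members (-0.11 and -0.18).

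Most of this co-variation rested on polyQ35-YFP EV replicates 3 and 4. In a score that averages the standardized deviations of the 10 members, replicate 3 stood at 1.44 and replicate 4 at -1.12, and the other 12 samples lay between -0.37 and 0.42. Without both samples, a choice made after seeing the data, the median correlation was 0.016 and 5 pairs, or 11.1%, exceeded 0.5, against 12.9% of all pairs of genes. Without those samples *tbx-11* and *tbx-38* still correlated at 0.85 and *tbx-8* and *tbx-9* at -0.71, while the correlation of *tbx-11* with *tbx-33* dropped from 0.73 to 0.28. The points share libraries, so depth and the makeup of a sample enter every pair.

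**Figure D3:**
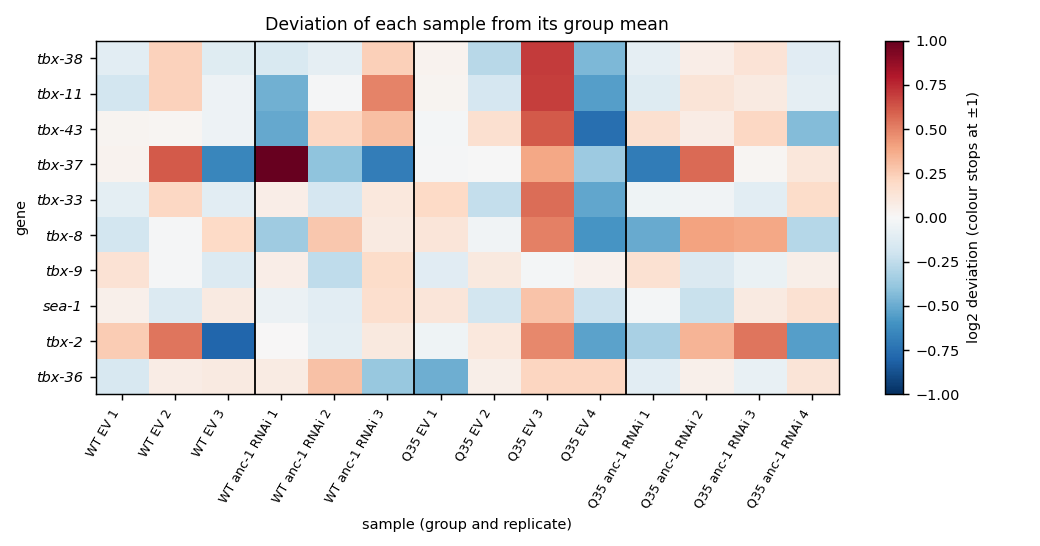
Deviation of each sample (horizontal axis, group and replicate) from the mean log2 value of its group, for each T-box gene (vertical axis), red above and blue below, with the colour stopping at ±1; Q35 stands for polyQ35-YFP. Replicate 3 of the polyQ35-YFP EV group was above its group mean in 9 of 10 genes and replicate 4 in 2 of 10.

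Outside the family, the genes whose deviations most resembled the T-box score were *hil-3* (r = 0.97), a linker histone gene, *igcm-4* (0.96), *zip-7* (0.95), a bZIP factor gene, *B0281.5* (0.95) and *flp-34* (0.95), a neuropeptide gene. Of 9526 genes compared over all 14 samples, 248, or 2.60%, exceeded 0.8. Without polyQ35-YFP EV replicates 3 and 4 the correlations of the named genes were between 0.81 and 0.87. Deviations here were still taken from group means that included both samples, whereas those of the member pairs were taken again without them. The remaining samples had also entered the ranking that picked the named genes, and no share of all genes is given for the reduced set. These values therefore do not show that the likeness holds without both samples. In wild-type worms *hil-3* fell, with a log2 fold change of -0.91 ± 0.13 (adjusted p = 0.000115), as did *B0281.5*, with -0.96 ± 0.13 (adjusted p = 8.87e-05), and *igcm-4*, with -0.80 ± 0.20 (adjusted p = 0.0138), while *zip-7* was at 0.49 ± 0.19 (adjusted p = 0.0955) and *flp-34* at 0.40 ± 0.20 (adjusted p = 0.192). In polyQ35-YFP worms *B0281.5* fell (-1.28 ± 0.23, adjusted p = 0.0126), and *hil-3* (-0.86), *igcm-4* (-1.12), *zip-7* (-0.37) and *flp-34* (0.57) were not called, with adjusted p-values from 0.0794 to 0.540.

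Part of the early embryo genes fell under *anc-1* RNAi as well. Of a list of 31 genes that are switched on in early *C. elegans* embryos, written from general knowledge and holding no member, 22 were listed for wild-type worms, where 10 fell and 1 rose (*sdz-1*), with a median log2 fold change of -0.93. In polyQ35-YFP worms 8 of 20 fell and none rose, with a median of -0.94. With the repeat number as a block 11 fell, and 12 fell without EV replicate 4. Both refits raised the calls over all genes of that strain. Genes called lower numbered 179 in the main fit, 524 with the block and 535 without EV replicate 4. They numbered 41 to 113 when any other sample of that strain was left out, and no list counts are given for those fits. The forkhead genes *fkh-4* and *fkh-3* fell in wild-type worms (log2 fold changes -1.59 ± 0.15 and -1.16 ± 0.13, adjusted p = 5.09e-06 and 1.36e-05), and *vet-2*, named for very early transcripts, fell too (-1.41 ± 0.16, adjusted p = 1.97e-05). Defining markers of the early endoderm and mesoderm such as *end-1*, *med-1*, *med-2* and *ceh-51* were listed in neither table.

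The summed level of that list, over the 20 genes in both tables, was 686 to 742 CPM (reads of a gene for every 1000000 reads on shared genes) in wild-type EV samples and 322 to 419 under RNAi. In polyQ35-YFP worms it was 360 to 829 CPM under EV and 254 to 307 under RNAi. The highest of those EV values belonged to replicate 3 and the lowest to replicate 4, the same samples that were high and low for the T-box genes. Across all samples, deviations of the list, over its 16 genes with a mean value of at least 10 in both tables, and of the T-box score correlated with r = 0.75 (n = 14), and with r = 0.33 without both samples. This was not particular to embryo genes, since the epidermis list (5 genes) gave r = 0.75 (0.25 without both samples) and the neuron list (10 genes) r = 0.68 (0.071), and both also had their highest polyQ35-YFP EV level in replicate 3 and their lowest in replicate 4. Other lists went the opposite way. Their r was -0.63 for oocyte and maternal genes, -0.58 for germline nuclei and -0.51 for pharynx (-0.21, 0.044 and -0.49 without both samples). For every list, the values without both samples used deviations from group means that still included them. Both samples therefore still entered these values in part. In replicate 4 the germline list was at 1089 CPM against 635 to 815 CPM in the other polyQ35-YFP EV samples, and the oocyte list at 29547 against 22446 to 25101 CPM. The part of the embryo content of the worms in the T-box response was not tested.

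Set against those embryo genes, the T-box genes did not all stay in proportion. For every 100 reads of the list, wild-type EV samples held 22.4 to 26.9 reads of *tbx-38* and RNAi samples 10.4 to 10.5. In polyQ35-YFP worms *tbx-38* was at 17.4 to 25.1 under EV and 11.9 to 15.8 under RNAi. For *tbx-11* the wild-type samples held 13.3 to 16.8 under EV against 6.90 to 10.5 under RNAi, and polyQ35-YFP samples 13.8 to 19.9 against 7.95 to 10.5, so both genes were lower under RNAi in this ratio too, without overlap. By contrast *sea-1* and *tbx-33* overlapped in the ratio in both strains, with *sea-1* at 1.86 to 2.36 against 2.13 to 2.34 in wild-type worms. *tbx-43* was lower under RNAi without overlap in wild-type worms only (2.68 to 2.84 against 1.225 to 1.98), and *tbx-8* in polyQ35-YFP worms only (2.46 to 3.19 against 1.09 to 2.32). *tbx-37* overlapped in both strains. Some members were higher under RNAi by this measure. *tbx-2* was so without overlap in both strains, at 0.320 to 0.770 against 0.968 to 1.17 and at 0.843 to 1.35 against 1.49 to 3.31. *tbx-9* was higher without overlap in wild-type worms only (4.70 to 5.53 against 6.89 to 8.91) and *tbx-36* in polyQ35-YFP worms only (0.540 to 1.64 against 1.72 to 2.24). The ratio was chosen after seeing the data and was not tested. The share of all genes without overlap in this ratio was not computed, so these separations do not set the members apart from other genes. It sets the changes already given against a list sum that itself fell, so it is no separate evidence. A member that fell less than the list is higher in the ratio without having risen. The list is also mixed, with 10 of 22 genes called lower and 1 higher in wild-type worms.

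**Figure D4:**
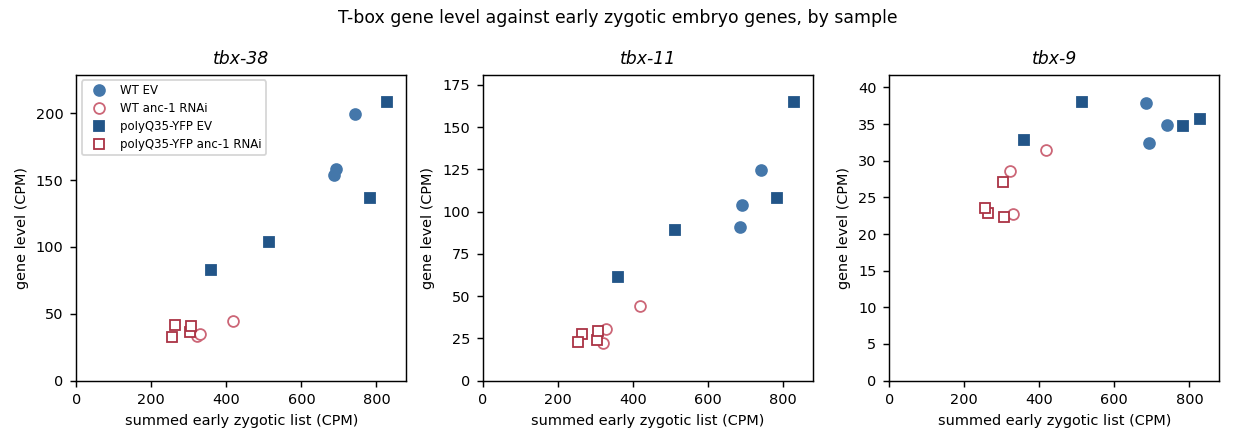
Level of *tbx-38*, *tbx-11* and *tbx-9* in CPM (vertical axes) against the summed CPM of 20 early embryo genes (horizontal axes) in every sample; circles are wild-type and squares polyQ35-YFP worms, filled for EV and open for *anc-1* RNAi, and all axes start at 0. RNAi samples lie at 254 to 307 CPM of the list in polyQ35-YFP worms and at 322 to 419 CPM in wild-type worms. The polyQ35-YFP EV sample nearest to them, at 360 CPM, is replicate 4, which stood apart from its group over all genes. Its *tbx-38* level is 82.5 CPM against 32.9 to 44.2 CPM in the RNAi samples. The part of embryo content in this difference was not tested.

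Lists for other cell types were counted too. Over all genes, 6.13% fell and 7.5% rose in wild-type worms, and 1.47% fell and 0.772% rose in polyQ35-YFP worms. The lists are short, so a single called gene does not set a list apart from all genes. Of all genes in polyQ35-YFP worms, 94 rose in the main fit, 466 with the repeat number as a block and 305 without EV replicate 4. Of 20 oocyte and maternal genes, 5 fell in wild-type worms and 2 in polyQ35-YFP worms and none rose (medians -0.23 and 0.03), among them *perm-4*, an eggshell gene (log2 fold changes -0.50 ± 0.09 and -0.63 ± 0.15, adjusted p = 0.000676 and 0.0454), and the RNA-binding protein genes *spn-4* and *pos-1* in wild-type worms. The others were *oma-1* and *nos-2* in wild-type and *perm-2* in polyQ35-YFP worms, and without EV replicate 4 the yolk receptor gene *rme-2* and *egg-2* rose there. Of 16 genes of germline nuclei, 1 rose in wild-type worms, the germ granule helicase gene *glh-1*, and none in polyQ35-YFP worms, where *glh-1* rose with the repeat number as a block and *glh-1* and *htp-2* without EV replicate 4. Of 8 sperm genes none was called in wild-type worms although 7 were below 0 (median -0.91). The 5 of them in both tables had a summed level of 2.95 to 3.69 CPM under EV and 0.358 to 2.23 CPM under RNAi. None of 6 sperm genes was called in polyQ35-YFP worms (median -0.35). Of 8 body wall muscle genes, 6 rose in wild-type worms and 3 of them in polyQ35-YFP worms, with medians of 0.60 and 0.47. *unc-15* (paramyosin) rose by a log2 fold change of 0.60 ± 0.10 and 0.54 ± 0.12 (adjusted p = 0.000499 and 0.0346). The 3 include *unc-54* (log2 fold changes 0.37 and 0.79, adjusted p = 0.0140 and 0.0185), whose promoter drives the transgene. The summed level of the list was 2364 to 2445 CPM in wild-type EV samples and 6493 to 8982 CPM in polyQ35-YFP EV samples. Its genes did not all share a gap of this size. In normalized reads, scaled separately for each strain, EV means in wild-type and polyQ35-YFP worms were 887 and 794 for *unc-15* and 1791 and 1855 for *lev-11*. For *act-4* they were 8095 and 11274. Whether transgene reads were counted for *unc-54* was not tested. Among pharynx, intestine, neuron and epidermis genes none was called in polyQ35-YFP worms. With the repeat number as a block *vit-5*, *tnc-2* and *mlc-1* rose and *unc-119* fell there, and without EV replicate 4 *mlc-1* rose and *unc-119* fell. Of these lists, the myosin light chain gene *mlc-1*, the vitellogenin genes *vit-2*, *vit-3*, *vit-4*, *vit-5* and *vit-6*, the syntaxin gene *unc-64* and the cuticle collagen genes *dpy-7*, *sqt-3* and *dpy-10* rose in wild-type worms, while the protease gene *cpr-1*, the neuronal gene *unc-119* and the collagen gene *col-19* fell.

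Counts for partners and pathway genes of the members, here and in the next paragraph, stand beside the same shares of all genes. For polyQ35-YFP worms the block and the fit without EV replicate 4 raised calls over all genes too, as given above. *sea-1* acts in the count of X chromosomes upstream of the sex switch and of dosage compensation, and of 10 genes of these steps 7 fell in wild-type worms (median -0.56) and 2 in polyQ35-YFP worms (median -0.73), where 7 fell with the repeat number as a block and 6 without EV replicate 4. Among them were *sex-1*, a nuclear receptor gene of the X signal (log2 fold changes -0.78 ± 0.14 and -0.87 ± 0.20, adjusted p = 0.00112 and 0.0390), *sea-2*, another autosomal signal gene (log2 fold changes -0.76 ± 0.15 and -0.75 ± 0.16, adjusted p = 0.00255 and 0.0320), and *fox-1*, an RNA-binding gene of the X signal, in wild-type worms (-0.61 ± 0.15, adjusted p = 0.0111). The other 4 in wild-type worms were *ceh-39*, a further gene of the X signal, and *sdc-1*, *dpy-27* and *dpy-30*, which act in dosage compensation. The switch gene *xol-1* itself, picked for its link to *sea-1* after values were seen, had log2 fold changes of -0.51 ± 0.25 and -0.99 ± 0.39 (adjusted p = 0.193 and 0.230), and fell in polyQ35-YFP worms without EV replicate 4 (log2 fold change -1.41, adjusted p = 0.00766). The deviations of this list and of the T-box score, of which *sea-1* is a part, correlated with r = 0.93 over the 14 samples. Without polyQ35-YFP EV replicates 3 and 4 r was 0.65, again with deviations from group means that included both samples. For the lists of the next paragraph r was 0.13 for Notch genes, -0.32 for the TBX-2 list and -0.51 for muscle and epidermal fate genes. Computed in the same way without both samples, these were -0.20, -0.44 and -0.10. A high r was thus not shared by the partner lists.

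Of 13 genes of the Notch pathway, whose signal induces pharynx in ABa descendants that express *tbx-37* and *tbx-38*, 3 fell in wild-type worms (median -0.27) and none was called in polyQ35-YFP worms (median -0.25), though *lag-2* and the presenilin gene *sel-12* fell without EV replicate 4, and *sel-12* with the repeat number as a block. The 3 were the Notch ligand genes *lag-2* (-1.55 ± 0.40, adjusted p = 0.0139) and *apx-1* (-0.50 ± 0.15, adjusted p = 0.0319), and *lag-1*, which encodes the DNA-binding partner of Notch (-0.35 ± 0.11, adjusted p = 0.0373). TBX-2 is modified by SUMO and works with the Groucho corepressor UNC-37, and of that list 2 of 7 genes fell in wild-type worms and 1 of 8 in polyQ35-YFP worms (medians -0.06 and -0.32). These were *unc-37* in both strains (log2 fold changes -0.71 ± 0.11 and -0.81 ± 0.16, adjusted p = 0.000253 and 0.0180) and the SUMO gene *smo-1* in wild-type worms (-0.50 ± 0.09, adjusted p = 0.000966). None of 8 genes for muscle and epidermal fate, listed beside *tbx-8* and *tbx-9*, was called in either strain (medians -0.09 and 0.26), though the GATA factor gene *elt-1* fell in polyQ35-YFP worms with the repeat number as a block and without EV replicate 4.

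Baselines of the strains were compared under EV in CPM over the 11751 shared genes, without a test, because each table had its own normalization, and a batch that went with strain cannot be told apart from it. Ranges of the strains did not overlap for 2 of 10 members, both lower in polyQ35-YFP worms, against 5.23% of all genes lower and 4.5% higher without overlap. Wild-type samples held 7.55 to 9.35 CPM of *tbx-36* and polyQ35-YFP samples 4.23 to 6.70 CPM. For *sea-1* the ranges were 13.8 to 16.3 CPM and 8.51 to 13.7 CPM, and the closest samples nearly touched. Under RNAi *sea-1* was again without overlap (7.20 to 8.92 against 5.91 to 7.17 CPM), as was *tbx-33* (10.5 to 12.97 against 8.40 to 9.63 CPM), while *tbx-36* overlapped. These 2 of 10 members, both lower in polyQ35-YFP worms, stand beside 8.83% of all genes lower and 5.09% higher without overlap under RNAi.

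For the remaining 8 members the EV ranges of both strains overlapped. *tbx-9* was nearly level, with means of 35.1 ± 2.7 CPM in wild-type worms (SD, n = 3) and 35.3 ± 2.1 CPM in polyQ35-YFP worms (SD, n = 4). *tbx-38* was at 170 ± 25 and 133 ± 55 CPM and *tbx-11* at 107 ± 17 and 106 ± 44 CPM, with the wider spread in polyQ35-YFP worms in each case. *tbx-2* had the highest ratio, at 4.16 ± 1.8 CPM in wild-type and 6.66 ± 2.1 CPM in polyQ35-YFP worms, a log2 difference of 0.70. The median log2 difference of the members, polyQ35-YFP minus wild type, was -0.22, from -0.61 to 0.70, against -0.0066 for all shared genes. It was -0.04 without polyQ35-YFP EV replicate 4, -0.06 without wild-type EV replicate 2 and -0.39 without polyQ35-YFP EV replicate 3. On the separately scaled deposited values it was -0.03 and the small differences of *tbx-11* and *tbx-43* changed sign, so no direction is drawn for them.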

How the data were processed

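Whole-worm RNA of 14 samples was sequenced with CEL-Seq2, 3 for each treatment of wild-type worms and 4 for each treatment of polyQ35-YFP worms. The authors trimmed reads with cutadapt 1.12, aligned them with TopHat2 2.1.1 to WBcel235 and counted protein-coding genes with HTSeq-count 0.6.1, without molecular identifiers, so reads are not independent molecules and the limit given for a count of 0 covers counting error only. SEs and 95% intervals rest on the spread between samples. Whether counting used strand is not given in the sources used here. The authors dropped genes with a mean count under 2. The signal values deposited per sample are their counts divided by a DESeq2 1.22.2 size factor, in a table for each strain. All values (100%) were whole reads within 0.01, so reads were recovered and totals (4934531 to 11563506) taken from them. Fold changes and p-values in those tables are the authors' comparisons and were not used. Table columns of no sample in the series numbered 0.

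The members and gene lists were chosen with earlier results of these data known. Each strain was fitted with limma 3.58.1 in R 4.3.3 on log2(value + 1), so fold changes understate those of low genes, with a variance trend, two-sided, and Benjamini-Hochberg adjustment over its 12061 or 12173 genes. The design foresaw this for normalized values. edgeR 4.0.16 and DESeq2 1.42.0 on recovered reads, a replicate block, pseudocounts of 0.5 and 5, a mean of at least 10, library-size scaling, no variance trend and each sample left out were alternatives. Named genes were the members, other T-box genes, *anc-1*, the 5 genes most like the T-box score, and up to 3 called genes of each list with the lowest adjusted p. Other genes of short counts, *sodh-1* and *xol-1* were named after their values were seen.

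Per the labels each repeat held both treatments, so the number was taken as a pair. Deviations of samples with the same number correlated at 0.049 to 0.081 in wild-type and 0.095 to 0.57 in polyQ35-YFP worms. Samples with different numbers gave -0.108 to 0.035 in wild-type and -0.469 to 0.27 in polyQ35-YFP worms. In the latter strain only the pair of replicate 4, at 0.57, lay above that range. The sources call the repeats independent. Positions are those of the deposited tables, and exons come from Ensembl release 115 of the same build. Promoter motifs were not searched, since no genome sequence was used here.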

Additional observations from a re-analysis of the deposited data

How the results depend on the processing

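The 7 calls in wild-type worms stayed 7 in the fits with the replicate block, edgeR, DESeq2, other pseudocounts, the mean filter and library-size scaling, and were 5 without a variance trend and 6 to 7 when a sample was left out. In polyQ35-YFP worms the 6 calls became 7 with the replicate block and with DESeq2, 5 with edgeR, 4 with library-size scaling, 0 without a variance trend and 3 to 6 when a sample was left out, the 3 without EV replicate 2. Over all genes of that strain, calls lower and higher were 179 and 94, 524 and 466 with the block, 394 and 200 with DESeq2, 94 and 32 with library-size scaling, 6 and 1 without the trend, and 535 and 305 without EV replicate 4. In wild-type worms they were 739 and 905, and 155 and 329 without the trend. The replicate block changed no call of a member other than *tbx-9*, and 0 members differed between strains in every fit. Values near 0 changed sign. *tbx-2* ran from -0.45 to 0.21 in wild-type and -0.23 to 0.13 in polyQ35-YFP worms with a sample left out, and *tbx-36* in polyQ35-YFP worms from -0.14 to 0.095, at -0.010 with edgeR, -0.0078 with DESeq2 and -0.024 with library-size scaling. The strain differences of *tbx-2* (-0.26 to 0.40, and -0.051 with library-size scaling), *tbx-11* (-0.35 to 0.14) and *tbx-33* (-0.10 to 0.26) did so too. The median correlation of the members was 0.34 with a pseudocount of 5, 0.13 to 0.40 with a sample left out, 0.016 without polyQ35-YFP EV replicates 3 and 4, and 0.78 around strain means, which hold the treatment difference. The cause of these shifts was not tested. Low read numbers limit *tbx-37*, *tbx-39*, *tbx-40* and *tbx-7*.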
